A study of Rattus norvegicus with 6 samples.

Results

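The heat shock proteins, DNAJ proteins, chaperonins and prefoldins are the main protein-folding machinery of the cell, and their transcripts were compared in bone marrow c-kit+ cells of ACI rats 36 h after phenylhydrazine (PHZ). Members were all genes in the authors' table whose symbol begins with Hsp followed by a digit or by a, b, d, e or h, with Dnaja, Dnajb or Dnajc, with Cct and a digit from 2 to 8, or with Pfdn and a digit, together with Tcp1. The rule gave 83 of the 17172 genes in the files, and 72 of them passed the filter on low counts and were tested. In the PHZ group 3 rats received 100 mg/kg PHZ by intraperitoneal injection, and in the control group 3 rats received phosphate-buffered saline (PBS) by the same route. All 6 rats were ACI, 6 to 8 weeks old, with 2 animals labelled female and 1 labelled male in either group. Marrow of the hind legs was collected 36 h after injection, cells carrying c-kit, the receptor for stem cell factor, were enriched with an antibody and streptavidin-coated particles, and 1 poly(A) RNA library was made per rat. PHZ oxidises and destroys circulating red cells, an experimental model of haemolytic anaemia. The cells profiled are enriched, not purified to 1 type, and include haematopoietic stem cells, their progeny and young erythroid precursors.

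Chaperones bind unfolded protein and keep it from aggregating. HSP70 proteins work in cycles of ATP hydrolysis that DNAJ proteins start and nucleotide exchange factors end, and they pass some clients to HSP90 or to the chaperonins, ring-shaped chambers that enclose a folding protein. The chaperonin of mitochondria is made of Hspd1 and its lid Hspe1, that of the cytosol is TRiC, which folds actin and tubulin and receives them from prefoldin, and the endoplasmic reticulum has its own HSP70 (Hspa5) and HSP90 (Hsp90b1). Erythroid precursors make large amounts of globin, in human cells HSP70 protects the erythroid factor GATA1 from cleavage, and in mouse and human cells HSP90 takes part in haem insertion into haemoglobin.

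Many of these genes are classical targets of the heat shock factors, which bind inverted repeats of GAA, the heat shock element. In the RefSeq promoter windows (assembly GRCr8, 250 bases before to 50 bases after the start), 69 of the 83 members had an entry. A run of 3 units, searched on both strands as GAANNTTC followed by NNGAA and as its reverse complement, TTCNNGAA followed by NNTTC, was present in 6 of these 69 windows (8.70%), those of Hspd1, Hspe1, Hsph1, Hspa8, Cct4 and Dnaja1, against 202 of all 27457 windows (0.736%). These windows are shown because they hold the longest runs of the element among the members. Capitals mark every heat shock element of 2 or more units (GAANNTTC or TTCNNGAA, alone or joined), and all are printed 5′ to 3′ on the strand of the gene.
Hspe1, chr9:64084077-64084376, plus strand: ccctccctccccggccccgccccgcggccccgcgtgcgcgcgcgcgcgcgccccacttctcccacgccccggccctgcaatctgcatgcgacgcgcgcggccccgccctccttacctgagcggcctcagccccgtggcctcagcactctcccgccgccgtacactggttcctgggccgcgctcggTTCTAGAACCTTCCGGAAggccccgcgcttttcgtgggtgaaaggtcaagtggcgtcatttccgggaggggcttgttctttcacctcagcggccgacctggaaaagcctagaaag
Hsph1, chr12:10427118-10427417, plus strand: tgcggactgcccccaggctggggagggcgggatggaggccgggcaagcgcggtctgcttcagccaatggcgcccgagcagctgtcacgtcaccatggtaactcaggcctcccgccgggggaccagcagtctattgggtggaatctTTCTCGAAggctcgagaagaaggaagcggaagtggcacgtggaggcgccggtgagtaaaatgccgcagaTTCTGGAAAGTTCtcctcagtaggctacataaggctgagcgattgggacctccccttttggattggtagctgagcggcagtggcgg
Hspa8, chr8:50080264-50080563, plus strand: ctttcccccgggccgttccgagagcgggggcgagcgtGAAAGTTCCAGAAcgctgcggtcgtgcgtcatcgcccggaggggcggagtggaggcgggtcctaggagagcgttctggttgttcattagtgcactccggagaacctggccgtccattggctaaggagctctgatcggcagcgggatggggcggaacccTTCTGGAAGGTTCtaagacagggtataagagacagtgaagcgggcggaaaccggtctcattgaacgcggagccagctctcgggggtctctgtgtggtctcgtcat
Cct4, chr14:101192807-101193106, plus strand: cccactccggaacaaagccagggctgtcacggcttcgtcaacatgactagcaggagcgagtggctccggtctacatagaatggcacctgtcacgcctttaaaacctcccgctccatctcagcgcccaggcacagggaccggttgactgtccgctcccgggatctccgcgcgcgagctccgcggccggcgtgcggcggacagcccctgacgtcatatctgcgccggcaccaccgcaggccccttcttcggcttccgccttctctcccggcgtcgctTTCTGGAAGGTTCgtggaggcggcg
Dnaja1, chr5:60638154-60638453, plus strand: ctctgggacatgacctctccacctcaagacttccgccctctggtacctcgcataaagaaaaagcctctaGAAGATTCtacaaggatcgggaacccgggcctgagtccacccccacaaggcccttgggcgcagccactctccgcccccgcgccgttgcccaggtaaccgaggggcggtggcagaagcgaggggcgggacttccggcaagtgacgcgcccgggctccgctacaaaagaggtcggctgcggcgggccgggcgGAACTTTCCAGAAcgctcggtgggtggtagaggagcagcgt
The Hspe1 window also serves Hspd1, since the pair lies head to head with starts 290 bases apart and windows that share 211 bases. The joined run of 18 bases began 65 bases before the Hspe1 start and, read on the other strand, 242 bases before the Hspd1 start. The Hsph1 window held a 13-base run 36 bases before the start, that of Hspa8 held 2 such runs, 213 and 55 bases before the start, and in Cct4 and Dnaja1 the run lay 25 and 9 bases after the start base. A match is a description of the letters in the window and no measurement of binding.

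The libraries held 13196249 to 19492793 expected counts. A count of 3, the limit a count of 0 allows, was 0.154 to 0.227 CPM (counts scaled to library size), which covers counting error only. Y-linked transcripts went against the sex label in 3 libraries (PHZ replicate 3 and PBS replicates 1 and 2), and the counts of calls are therefore given with and without those libraries. PBS replicate 1 also stood apart in stromal and endothelial markers, with a summed level of 555 CPM against 76.6 and 78.9 CPM in the other PBS libraries. The same library was highest in monocyte and macrophage markers, with 3344 CPM against 1211 and 1328 CPM in the other PBS libraries. The 7 erythroid markers found summed to 61260 to 183700 CPM in PHZ libraries and 70020 to 155000 CPM in PBS libraries, most of it the globin gene Hba1, and 3 of the 7 were called higher (Gata1, Klf1 and Tfrc). All tested markers of the other lineages had estimates below 0, and some were called lower. The 8 B lineage markers summed to 139.4 to 213.5 CPM in PHZ libraries and 549.2 to 676.2 CPM in PBS libraries (6 of 8 called lower), and the 7 T and NK markers to 62.2 to 93.9 CPM in PHZ libraries and 60.8 to 179.2 CPM in PBS libraries (5 of 7 called lower). The late neutrophil markers summed to 5013 to 10570 CPM in PHZ libraries and 12460 to 24150 CPM in PBS libraries (1 of 6 tested called lower, with Ltf at 3 counts or fewer in each library), and the 7 monocyte and macrophage markers to 1217 to 1664 CPM in PHZ libraries and 1211 to 3344 CPM in PBS libraries (none called by edgeR, 1 at an unadjusted p under 0.05). The stromal and endothelial markers summed to 23.8 to 44.7 CPM in PHZ libraries and 76.6 to 555 CPM in PBS libraries (2 of 5 tested called lower). Kit itself stood at 33.9, 55.1 and 71.7 CPM in PHZ libraries and 54.9, 63.9 and 51.7 CPM in PBS libraries, and the groups overlapped. The B lineage, late neutrophil and stromal and endothelial sums were lower in every PHZ library than in any PBS library, while the erythroid, T and NK, and monocyte and macrophage sums overlapped between the groups. The part of these levels in the results below was not tested.

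Of the 72 members tested, 18 were higher and 1 was lower in PHZ cells (edgeR quasi-likelihood test, adjusted p under 0.05 over all 13547 genes tested). That is 26.4% of the members, against 13.2% of all genes tested, and 25.0% against 8.99% in the higher direction and 1.39% against 4.17% in the lower. The called rises were moderate, from 1.47-fold to 2.32-fold, and 4 of them reached 2-fold. They covered both mitochondrial chaperonin genes and all 8 measured TRiC subunits, together with Hsph1, Hspa9, Hsp90aa1, Dnaja3, Dnaja4, Dnajc9, Dnajc11 and Hspbp1, while Dnajc17 was the gene called lower. The log2 fold change was above 0 for 48 members and below 0 for 24 (47.6% of all genes tested were above 0), with a median of 0.33 against -0.04 over all genes tested. The groups did not overlap in 34 members (47.2%), 31 of them higher in PHZ, against 41.7% of all genes tested. An unadjusted p under 0.05 was found for 31 of the 72 members and for 4626 of all 13547 genes tested. Counts of unadjusted p in the classes and lists of this fit are to be read beside that share. In bulk samples, a change in the share of cells that carry a transcript and a change of its level per cell cannot be told apart.

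The number of calls depended on single libraries. Without PBS replicate 2 or PBS replicate 3 no member was called by edgeR, the smallest adjusted p being 0.0969 and 0.11. All 19 had an unadjusted p under 0.05 in both fits, as had 3325 of 13815 and 3291 of 13864 genes tested. The 19 were chosen on these same libraries, so their unadjusted p is no separate support, here or in the other fits. Without PHZ replicate 2 edgeR called 2 members (Hspd1 and Hsph1), and without PHZ replicate 3 it called 8. Leaving out PHZ replicate 1 gave 21 calls, 15 of them among the 19, and leaving out PBS replicate 1 gave 19, of which 17 were among the 19. Over all genes, edgeR called 1783 of 13547 with all 6 libraries and 0 without PBS replicate 2 or PBS replicate 3. It called 266 of 13919 without PHZ replicate 2 and 572 of 13955 without PHZ replicate 3. The count was 1742 of 13811 without PHZ replicate 1 and 1744 of 13780 without PBS replicate 1. Without the 3 libraries that go against their sex label, which leaves 2 PHZ and 1 PBS and takes the lone PBS library to vary like the PHZ ones, none was called by edgeR (smallest adjusted p 0.467, 9 of the 19 at an unadjusted p under 0.05). DESeq2, which called 26.2% of all genes, called 25 members and among them all 19.

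**Figure D1:**
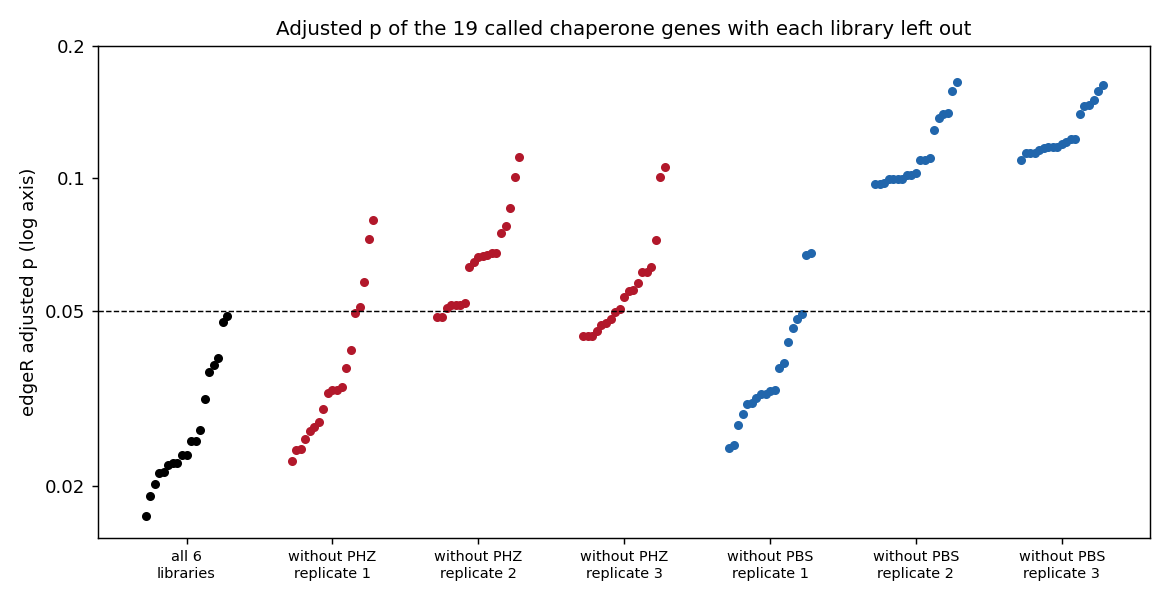
Adjusted p from edgeR (log axis) of the 19 chaperone genes called with all 6 libraries, in that fit and with each library left out; each point is a gene and the dashed line is 0.05. No gene is below the line without PBS replicate 2 or 3, and 2 are below it without PHZ replicate 2.

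The transcripts spanned a wide range of abundance. By mean FPKM (fragments scaled to transcript length and library size, so that genes can be compared), 7 members stood at 100 or more, 42 between 10 and 100, 19 between 1 and 10 and 15 under 1. Hspa8, the constitutive cytosolic HSP70, was the most abundant member in every library, ranking from 43rd to 149th of all genes, while Hsp90ab1 ranked from 118th to 199th and Hspa5 from 157th to 320th. All members together held 1.37%, 0.922% and 1.05% of counts in the PHZ libraries and 0.956%, 0.745% and 0.757% in the PBS libraries, ranges that overlap. The 11 members below the filter were Hspa12a, Hspa1l, Cct6b, Cct8l1, Hspb2, Hspb7, Hspb8, Hspb9, Dnajb3, Dnajb7 and Dnajb8, with 0 to 0.64 CPM in each library.

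**Figure D2:**
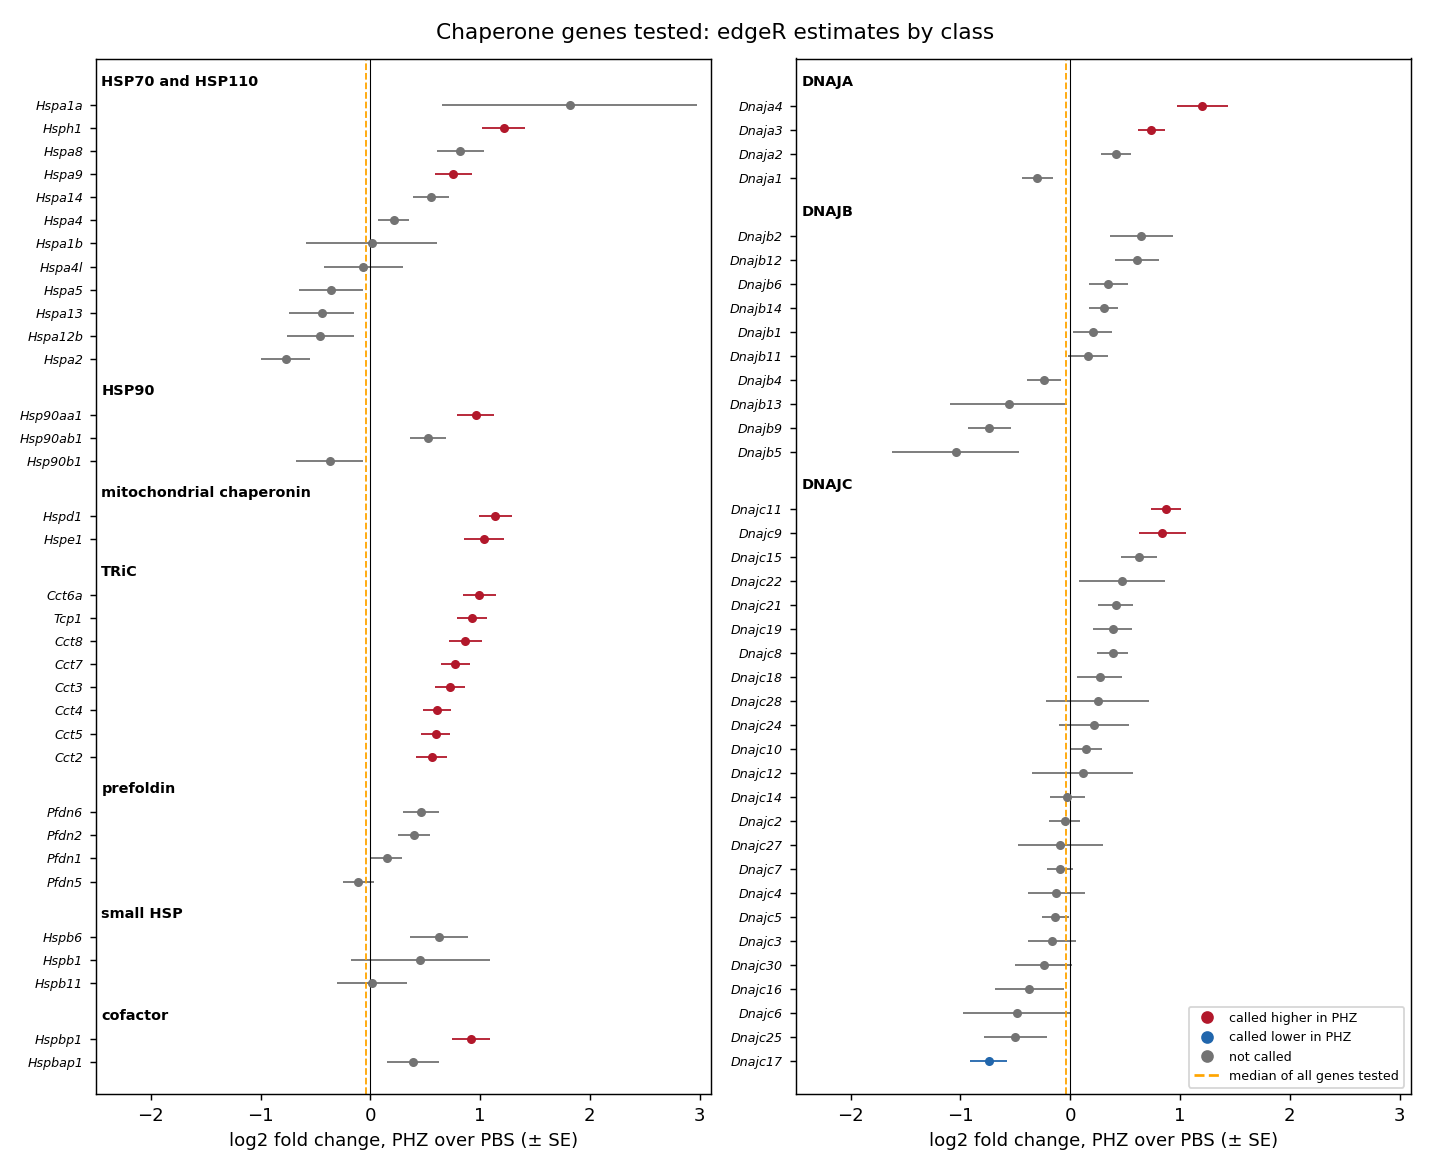
Log2 fold change of PHZ over PBS (edgeR estimate, bars are standard errors) of the 72 chaperone genes tested, by class and in order of size; red is called higher, blue called lower, grey not called, and the dashed line is the median of all genes tested (-0.04). Both mitochondrial chaperonin genes and all 8 TRiC genes are called higher, while the estimates of DNAJC genes lie on both sides of 0.

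Both subunits of the mitochondrial chaperonin rose in PHZ cells. Hspd1 (Entrez gene 63868), the HSP60 subunit that forms the ring, had 348.1, 320.0 and 311.0 CPM in PHZ libraries, against 162.8, 124.6 and 157.7 CPM in PBS libraries. Hspe1 (Entrez gene 25462), the HSP10 lid, had 70.1, 67.4 and 63.8 CPM in PHZ libraries, against 41.7, 28.7 and 27.9 CPM in PBS libraries. In both genes every PHZ library was above every PBS library, and the PHZ values lay close together. Hspd1 was 2.20-fold higher (log2 fold change 1.14 ± 0.15 (SE), edgeR adjusted p = 0.0171), the smallest p of any member, and Hspe1 was 2.05-fold higher (1.03 ± 0.18, edgeR adjusted p = 0.0235). The ratio of Hspd1 to Hspe1 in FPKM was 1.40, 1.35 and 1.38 in PHZ and 1.10, 1.23 and 1.59 in PBS libraries, and the groups overlapped (exact permutation test on the log2 ratio, two-sided, difference 0.09, p = 0.7, adjusted p = 0.8 over 3 ratios).

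All 8 measured subunits of TRiC, the cytosolic chaperonin, rose by 1.47-fold to 1.99-fold, and their median log2 fold change was 0.75. Cct6a (Entrez gene 288620) had 152.2, 121.4 and 113.6 CPM in PHZ libraries, against 70.4, 61.1 and 63.0 CPM in PBS libraries, and was 1.99-fold higher (log2 fold change 0.99 ± 0.15, edgeR adjusted p = 0.0202). Tcp1 (Entrez gene 24818), the alpha subunit, had 225.4, 223.1 and 184.7 CPM in PHZ libraries, against 115.4, 102.3 and 115.2 CPM in PBS libraries, and was 1.90-fold higher (0.93 ± 0.14, edgeR adjusted p = 0.019). At the other end Cct2 (Entrez gene 299809) had 221.2, 196.0 and 169.6 CPM in PHZ libraries, against 138.1, 124.1 and 136.6 CPM in PBS libraries, and was 1.47-fold higher (0.56 ± 0.14, edgeR adjusted p = 0.0487). In each of these genes all PHZ values were above all PBS values, with PHZ replicate 3 the lowest of its group.

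The other subunits lay in between. Cct8 was 1.82-fold, Cct7 1.71-fold, Cct3 1.66-fold, Cct4 1.52-fold and Cct5 1.51-fold higher (edgeR adjusted p = 0.0226, 0.0226, 0.0253, 0.0316 and 0.0363). The call of Cct2 held in 2 of 14 alternatives, DESeq2 and the stricter filter, and was lost in the others, among them upper-quartile scaling (edgeR adjusted p = 0.064), RLE scaling (0.0529), no filter (0.0551) and each fit with 1 library left out. Because the subunits assemble in equal number, their levels per length were also compared. Cct5, the epsilon subunit, had the highest FPKM of the 8 and Cct6a, the zeta subunit, the lowest in all 6 libraries. The ratio of the highest to the lowest was 2.76, 3.0 and 3.15 in PHZ and 3.76, 3.81 and 4.07 in PBS libraries. Cct5 and Cct6a thus stood closer together in every PHZ library than in any PBS library. The spread of the other subunits was not compared. Summed over the complex, TRiC transcripts reached 1001.5, 761.4 and 752.4 FPKM in PHZ and 572.6, 503.1 and 498.5 FPKM in PBS libraries. The paralogues Cct6b and Cct8l1 were near 0 throughout.

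**Figure D3:**
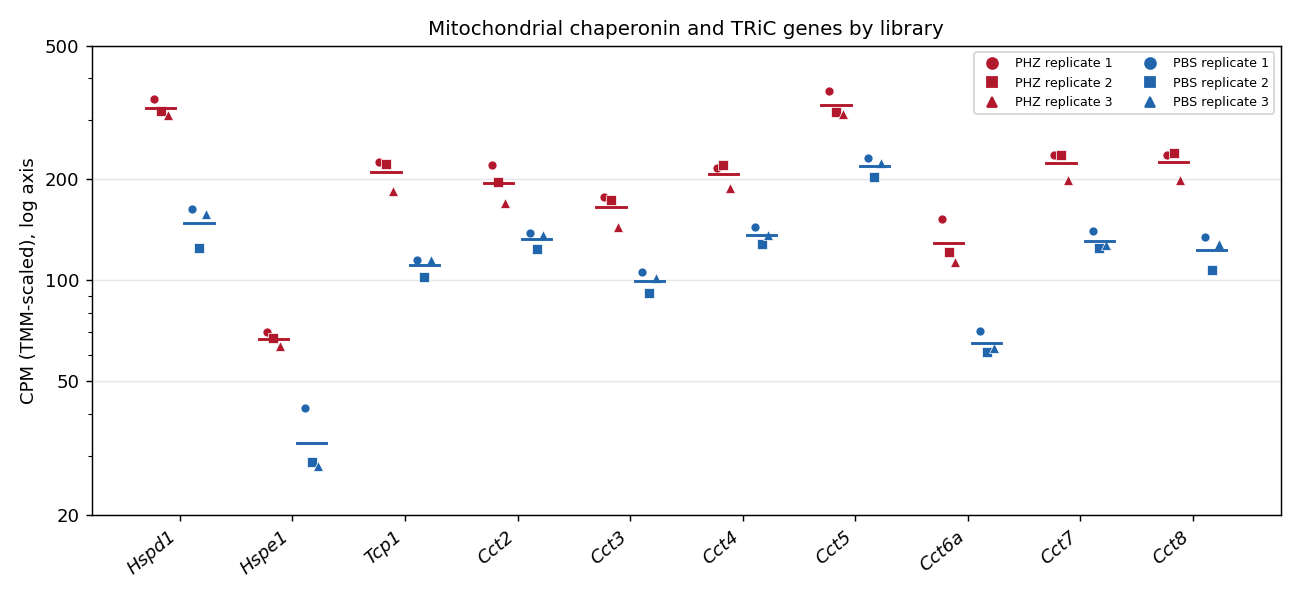
CPM (TMM-scaled, log axis) of the 2 mitochondrial chaperonin genes and the 8 TRiC subunit genes in each library, PHZ in red left of PBS in blue; points are libraries and bars are group means. All PHZ points lie above all PBS points in each gene, and among the TRiC genes the values run from Cct6a at 113.6 to 152.2 CPM in PHZ libraries and 61.1 to 70.4 CPM in PBS libraries to Cct5 at 312.4 to 366.3 CPM in PHZ libraries and 203.5 to 231.2 CPM in PBS libraries.

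Prefoldin, which hands actin and tubulin to TRiC, gave no call by edgeR or by DESeq2. By edgeR 2 prefoldin genes had an unadjusted p under 0.05, as had 4626 of all 13547 genes tested. The 4 measured prefoldin genes had log2 fold changes of 0.46 (Pfdn6, edgeR adjusted p = 0.103), 0.40 (Pfdn2, 0.114), 0.15 (Pfdn1, 0.484) and -0.11 (Pfdn5, 0.615). The summed level was 161.7, 143.0 and 133.3 FPKM in PHZ and 152.8, 137.4 and 116.7 FPKM in PBS libraries, and the groups overlapped. Pfdn6 had 28.03, 26.4 and 21.6 CPM in PHZ libraries, against 20.8, 17.8 and 16.5 CPM in PBS libraries, and Pfdn2 was likewise higher in each PHZ library than in any PBS library.

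Among the HSP70 and HSP110 genes, edgeR called 2 of 12 tested higher and none lower, 16.7% against 13.2% of all genes. DESeq2 called 5, with Hspa8 and Hspa14 also higher and Hspa2 lower, and edgeR without PHZ replicate 1 called 4, with Hspa5 and Hspa13 lower. Hsph1 (Entrez gene 288444), an HSP110 that acts as a nucleotide exchange factor of HSP70, had 230.3, 187.5 and 248.7 CPM in PHZ libraries, against 111.6, 75.1 and 100.6 CPM in PBS libraries. It was 2.32-fold higher, the largest called rise of any member (log2 fold change 1.21 ± 0.19, edgeR adjusted p = 0.0215). Hspa9 (Entrez gene 291671), the mitochondrial HSP70 known as mortalin, had 214.1, 155.2 and 161.7 CPM in PHZ libraries, against 116.0, 93.7 and 104.5 CPM in PBS libraries, and was 1.69-fold higher (0.76 ± 0.17, edgeR adjusted p = 0.0376). Both genes were higher in all PHZ libraries than in any PBS library.

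Hspa8 (Entrez gene 24468) had 3019, 2214 and 2355 CPM in PHZ libraries, against 1710, 1172 and 1417 CPM in PBS libraries. The groups did not overlap, the estimate was 1.77-fold (log2 fold change 0.82 ± 0.21), and edgeR's adjusted p of 0.0515 missed the threshold. DESeq2 called it (adjusted p = 0.000994), as did edgeR without PBS replicate 1 (0.0472). In FPKM Hspa8 averaged 1207 in PHZ and 701 in PBS libraries, the largest difference in FPKM of any member.

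Of the stress-inducible HSP70 genes, Hspa1a varied widely among rats of the same group and Hspa1b was low in every library. Hspa1a (Entrez gene 24472) had 143.3, 16.4 and 363.4 CPM in PHZ libraries, against 103.1, 13.4 and 32.2 CPM in PBS libraries. PHZ replicate 3 was the highest library, PBS replicate 2 the lowest, and the groups overlapped (log2 fold change 1.82 ± 1.16, edgeR adjusted p = 0.311). The log2 fold change was 0.68 when PHZ replicate 3 was left out and 2.94 when PBS replicate 1 was, with an adjusted p between 0.189 and 0.764 over all alternatives. Its neighbour Hspa1b stood at 2.51, 0.500 and 1.69 CPM in PHZ libraries and 1.94, 1.16 and 1.57 CPM in PBS libraries (edgeR adjusted p = 0.991). The 2 genes are near-identical copies, so how their reads were split is uncertain. Hspa1a and Hspa1b together stood to Hspa8 at an FPKM ratio of 0.025, 0.00394 and 0.0805 in PHZ and 0.0317, 0.00629 and 0.0122 in PBS libraries, with no separation of the groups (exact permutation test on the log2 ratio, two-sided, difference 0.57, p = 0.8, adjusted p = 0.8 over 3 ratios).

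The HSP70 of the endoplasmic reticulum was not called. Hspa5 (BiP, Entrez gene 25617) had 1330, 681.4 and 703.9 CPM in PHZ libraries, against 1310, 1041 and 1133 CPM in PBS libraries. PHZ replicate 1 was as high as PBS and the other PHZ libraries were below every PBS library (log2 fold change -0.36 ± 0.29, edgeR adjusted p = 0.416). Without PHZ replicate 1 the log2 fold change was -0.74 and the gene was called lower (edgeR adjusted p = 0.0494). Of the other HSP70 genes, Hspa2, a gene best known from the testis, had 9.82, 10.7 and 13.3 CPM in PHZ libraries, against 14.6, 22.5 and 20.5 CPM in PBS libraries (log2 fold change -0.77 ± 0.22, edgeR adjusted p = 0.0626), and was called lower by DESeq2 and by edgeR without PBS replicate 1. The ribosome-associated Hspa14 averaged 45.0 ± 5.5 CPM in the PHZ group and 30.7 ± 4.7 CPM in the PBS group (SD, n = 3 each; edgeR adjusted p = 0.0694). Hspa4, another HSP110, averaged 153.7 CPM in the PHZ group and 132.7 CPM in the PBS group (edgeR adjusted p = 0.327).

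**Figure D4:**
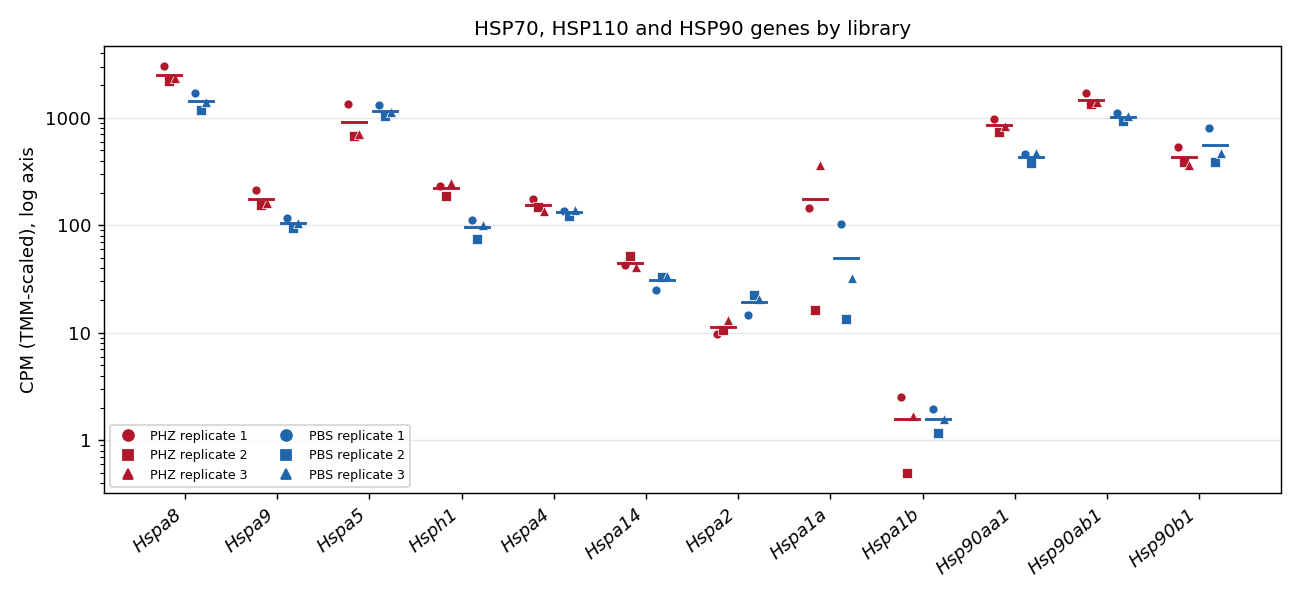
CPM (TMM-scaled, log axis) of HSP70, HSP110 and HSP90 genes in each library, PHZ in red left of PBS in blue; points are libraries and bars are group means. Hsph1, Hspa9 and Hsp90aa1, which were called higher, separate the groups. So do Hspa8, Hspa14 and Hsp90ab1, with PHZ higher, and Hspa2, with PHZ lower, none of them called by edgeR. Hspa1a runs from 16.4 to 363.4 CPM in PHZ libraries and 13.4 to 103.1 CPM in PBS libraries.

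Of the 3 HSP90 genes, 1 was called higher. Hsp90aa1 (Entrez gene 299331), the stress-inducible cytosolic form, had 965.0, 741.9 and 843.0 CPM in PHZ libraries, against 458.8, 378.1 and 472.5 CPM in PBS libraries. It was 1.95-fold higher (log2 fold change 0.96 ± 0.17, edgeR adjusted p = 0.0235), with every PHZ library above every PBS library. Hsp90ab1 (Entrez gene 301252), the constitutive cytosolic form, had 1698, 1339 and 1400 CPM in PHZ libraries, against 1113, 935.8 and 1032 CPM in PBS libraries. Its groups did not overlap either, at 1.44-fold (0.53 ± 0.16), but it missed the threshold (edgeR adjusted p = 0.0782, DESeq2 adjusted p = 0.00469). Hsp90b1 (Entrez gene 362862), the endoplasmic reticulum form known as GRP94, had 540.8, 385.4 and 362.4 CPM in PHZ libraries, against 798.5, 390.9 and 474.5 CPM in PBS libraries, with overlap (log2 fold change -0.37 ± 0.30, edgeR adjusted p = 0.426). Without PBS replicate 1 that estimate was -0.01.

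The cytosolic HSP90 forms were also set against each other within each library. Hsp90aa1 stood to Hsp90ab1 at an FPKM ratio of 0.473, 0.462 and 0.502 in PHZ and 0.343, 0.337 and 0.381 in PBS libraries. All 3 PHZ libraries were above every PBS library, and the difference of the log2 ratios was 0.44 (exact permutation test, two-sided, p = 0.1, the smallest p that 3 libraries against 3 allow; adjusted p = 0.3 over 3 ratios). Hsp90ab1 remained the more abundant form in all 6 libraries.

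The DNAJ genes, which encode the J-domain proteins that recruit HSP70 to its clients, were mixed. Of 38 tested, 4 were called higher and 1 lower (13.2%, the same share as of all genes), and the median log2 fold change was 0.15. In type A, the relatives of bacterial DnaJ, 2 of 4 were higher. Dnaja4 (Entrez gene 300721) had 150.8, 281.6 and 231.7 CPM in PHZ libraries, against 96.3, 94.0 and 98.1 CPM in PBS libraries, and was 2.30-fold higher (log2 fold change 1.20 ± 0.23, edgeR adjusted p = 0.0268). The PBS values lay close together, and the PHZ values spread widely above them. Dnaja3 (Entrez gene 360481), the mitochondrial member that works with Hspa9, had 55.9, 48.2 and 49.7 CPM in PHZ libraries, against 32.8, 30.5 and 29.0 CPM in PBS libraries, and was 1.67-fold higher (0.74 ± 0.12, edgeR adjusted p = 0.0223). Dnaja1, the most abundant of the type by mean FPKM over all libraries, had an estimate below 0 and was not called, at 122.4, 112.7 and 139.3 CPM in PHZ libraries, against 169.6, 138.9 and 151.7 CPM in PBS libraries (log2 fold change -0.30 ± 0.14, edgeR adjusted p = 0.186). Dnaja2 was 1.33-fold higher by estimate (edgeR adjusted p = 0.0864).

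None of the 10 type B genes tested was called by edgeR, and 1, Dnajb9, was called by DESeq2. An unadjusted edgeR p under 0.05 was found in 2 of the 10, against 4626 of all 13547 genes tested. Dnajb9 (Entrez gene 24908), a J protein of the endoplasmic reticulum and a target of the unfolded protein response, had 41.1, 28.9 and 32.9 CPM in PHZ libraries, against 67.9, 46.8 and 57.1 CPM in PBS libraries. All PHZ values were below all PBS values (log2 fold change -0.74 ± 0.20, edgeR adjusted p = 0.0534), and the gene was called lower with upper-quartile scaling (0.0468), with RLE scaling (0.0476), with the labelled sex as a covariate (0.0493), without PHZ replicate 1 (0.0433) and by DESeq2 (0.00547). Dnajb1, the stress-inducible HSP40, had 95.4, 91.7 and 107.3 CPM in PHZ libraries, against 106.3, 74.9 and 74.0 CPM in PBS libraries, and overlapped (edgeR adjusted p = 0.442). Dnajb12 had 74.7, 128.1 and 99.9 CPM in PHZ libraries, against 64.3, 68.0 and 66.5 CPM in PBS libraries (log2 fold change 0.61 ± 0.20, edgeR adjusted p = 0.088), and was called without PHZ replicate 1 (0.0314). Dnajb14 (edgeR adjusted p = 0.152) and Dnajb6 (0.216) had estimates of 0.31 and 0.35.

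Type C holds proteins that share little but the J domain, and its 24 tested genes split evenly, 12 with an estimate above 0 and 12 below. Dnajc11 (Entrez gene 362666), a mitochondrial protein tied to the cristae-organising complex, had 64.8, 76.5 and 61.7 CPM in PHZ libraries, against 39.6, 38.0 and 33.4 CPM in PBS libraries, and was 1.83-fold higher (log2 fold change 0.87 ± 0.14, edgeR adjusted p = 0.0214). Dnajc9 (Entrez gene 364240), which is also a chaperone of histones H3 and H4, had 95.2, 164.8 and 127.2 CPM in PHZ libraries, against 77.4, 65.9 and 73.0 CPM in PBS libraries, and was 1.79-fold higher (0.84 ± 0.21, edgeR adjusted p = 0.0471). Dnajc17 (Entrez gene 311329), linked to pre-mRNA splicing, was the member that fell, to 15.8, 19.1 and 17.6 CPM in PHZ libraries, against 24.0, 33.2 and 30.7 CPM in PBS libraries (1.68-fold lower, log2 fold change -0.74 ± 0.17, edgeR adjusted p = 0.039). In these 3 genes the groups did not overlap. Dnajc8, the most abundant of the type by mean FPKM and a splicing-associated protein, was 1.31-fold higher by estimate (edgeR adjusted p = 0.105), and Dnajc2, a ribosome-associated partner of Hspa14, had 43.5 CPM in PHZ libraries and 45.1 CPM in PBS libraries (edgeR adjusted p = 0.825).

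Genes classed as small heat shock proteins by symbol (Hspb and a number) were scarce. Such proteins hold unfolded protein without ATP, a role not assumed here for each gene with the symbol. None of the 3 tested was called by edgeR (0 at an unadjusted p under 0.05) or by DESeq2. Hspb6 had 14.0, 28.5 and 21.0 CPM in PHZ libraries, against 14.5, 13.7 and 12.97 CPM in PBS libraries, with PHZ replicate 1 inside the PBS range (log2 fold change 0.62 ± 0.26, edgeR adjusted p = 0.149), and it was called without PHZ replicate 1 (0.0414). Hspb1, known as HSP27 in humans, stood at 1.16 to 5.71 CPM over all libraries (edgeR adjusted p = 0.642), and Hspb11 at a mean of 2.68 CPM in PHZ libraries and 2.66 CPM in PBS libraries (edgeR adjusted p = 0.981). Of the 2 proteins named for binding to heat shock proteins, Hspbp1 (Entrez gene 246146), an exchange factor that inhibits HSP70, had 31.2, 41.6 and 34.9 CPM in PHZ libraries, against 22.1, 17.3 and 17.6 CPM in PBS libraries, and was 1.89-fold higher (0.92 ± 0.17, edgeR adjusted p = 0.0253). Hspbap1 was not called (edgeR adjusted p = 0.286).

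The partners of these chaperones were read from lists of their known cofactors. Of 20 HSP90 cochaperones tested, 7 rose and none fell, 35.0% against 13.2% of all genes, with a median log2 fold change of 0.43. Stip1 (HOP), which links HSP70 to HSP90, had 187.4, 202.0 and 189.8 CPM in PHZ libraries, against 93.5, 102.5 and 114.8 CPM in PBS libraries, and was 1.86-fold higher (edgeR adjusted p = 0.0187). Pih1d1, Fkbp4, Ptges3 (p23), Nudc, Ahsa1, the activator of the HSP90 ATPase, and Cdc37, its kinase adaptor, were 2.05-fold, 1.71-fold, 1.69-fold, 1.61-fold, 1.56-fold and 1.46-fold higher (edgeR adjusted p = 0.0437, 0.0269, 0.034, 0.0231, 0.0309 and 0.0275). The remaining 13 cochaperones were not called by edgeR, while DESeq2, which called 26.2% of all genes, called the 7 and 4 of these 13 (Fkbp5, Ppid, Sugt1 and St13), all higher.

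Of 8 mitochondrial partners and proteases tested, 2 rose by edgeR (25.0% against 13.2% of all genes) and 3 by DESeq2, and all 8 estimates were above 0 (median 0.43). Lonp1, the Lon protease of the mitochondrial matrix, had 155.5, 134.3 and 121.1 CPM in PHZ libraries, against 63.7, 57.5 and 58.3 CPM in PBS libraries, and was 2.29-fold higher (edgeR adjusted p = 0.0154). Trap1, the mitochondrial HSP90, had 107.7, 109.3 and 92.3 CPM in PHZ libraries, against 51.9, 54.4 and 56.5 CPM in PBS libraries, and was 1.90-fold higher (edgeR adjusted p = 0.0169). In both genes the lowest PHZ library was far above the highest PBS library. Of 11 HSP70 exchange factors tested, 2 rose, Hspbp1 and the mitochondrial Grpel2 (1.59-fold, edgeR adjusted p = 0.0368), 18.2% against 13.2% of all genes, and the median was 0.38. DESeq2 called 3 of these 11. Hspbp1 is counted both in this list and among the members called higher.

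The other 3 lists gave no call by edgeR. Their counts of an unadjusted edgeR p under 0.05 stand beside 4626 of all 13547 genes tested. None of 11 TRiC and prefoldin partners was called by edgeR (2 had an unadjusted p under 0.05, and DESeq2 called 1). None of 11 folding factors of the endoplasmic reticulum was called (1 had an unadjusted p under 0.05, and DESeq2 called 1), with a median of -0.11, although Canx (calnexin) was 1.54-fold higher by estimate (edgeR adjusted p = 0.054) and was the gene DESeq2 called. Of the heat shock factors, 3 of 4 listed were tested (Hsf4 was too low). Hsf1 had 34.5, 38.3 and 37.8 CPM in PHZ libraries, against 26.1, 36.9 and 36.4 CPM in PBS libraries, and was not called (edgeR adjusted p = 0.545). Hsf2 (0.427) and the HSF1-binding Hsbp1 (0.169) had estimates of -0.32 and -0.28, none of the 3 was called by DESeq2 and none had an unadjusted p under 0.05. The calls in the partner lists were all lost without PBS replicate 2 or PBS replicate 3, fits that called no gene of the whole table.

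**Figure D5:**
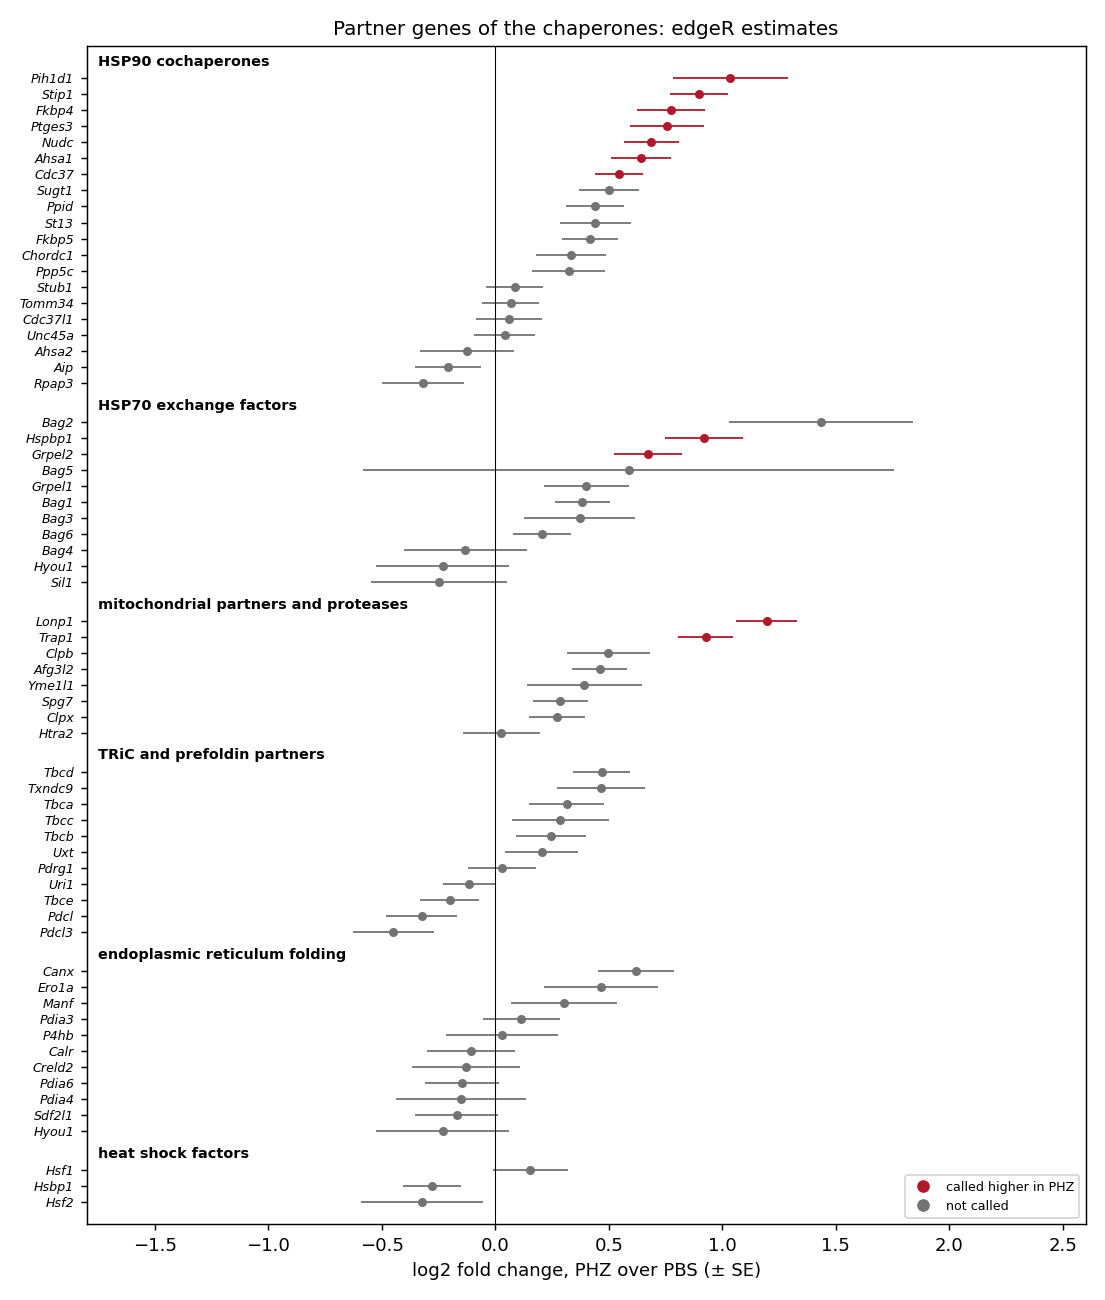
Log2 fold change of PHZ over PBS (edgeR estimate, bars are standard errors) of the chaperones' partner genes, by list and in order of size; red is called higher, grey not called, and no partner was called lower by edgeR. Calls lie among HSP90 cochaperones (7 of 20), HSP70 exchange factors (2 of 11) and mitochondrial partners (2 of 8).

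The 3-unit heat shock element was present in 4 of the 16 called-higher members that have a promoter window (Hspd1, Hspe1, Hsph1 and Cct4), and also in Hspa8 and Dnaja1, which were not called. Hspd1 and Hspe1 share the same run, so they are not separate elements. Hspa8 had an estimate above 0 and Dnaja1 one below it. At least a 2-unit element (GAANNTTC or TTCNNGAA, which overlap the 3-unit matches) was found in 19 member windows (27.5%), against 15.4% of all windows. The window at the annotated RefSeq start of the stress-inducible Hspa1a held neither a 2-unit nor a 3-unit element. It held none of the other motifs named below either. Whether that start is the one used in these cells was not tested, and bases outside the window were not searched. The absence is therefore a statement on that window and not on the Hspa1a gene. Of other motifs on both strands, GGGCGG was found in 72.5% of member windows against 34.9% of all, CCAAT in 39.1% against 37.7%, CACGTG in 8.70% against 6.65% and TATAAA in 7.25% against 14.3%. In each of these comparisons all windows means the 27457 of RefSeq, whether or not the gene was tested here. No comparison was made with expressed genes alone, so a higher share is not shown to be particular to chaperones. The windows of Hsp90aa1, Hspa1b and 12 other members were not analysed here.

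The authors' deposited table marks 4 members as up in PHZ (Hspa1a, Dnaja4, Hspd1 and Hsph1), 1 as down (Dnajb5) and leaves 78 unmarked. Of these 5, Dnaja4, Hspd1 and Hsph1 were also called by edgeR. Hspa1a (log2 1.79 in the authors' deposited table) and Dnajb5 (-1.10 in the authors' deposited table) were not called by edgeR (adjusted p = 0.311 and 0.248), and in both the libraries of the groups overlapped.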

How the data were processed

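Poly(A) RNA was sequenced from c-kit+ marrow cells, 1 library per rat, 3 PHZ and 3 PBS. The submitters' processing notes name HISAT, GATK, RSEM and the build rn6 without roles or versions, and whether counting used strand is not given in the sources used here. Each library's table, per the file headers, gives an expected count (an estimated count that need not be whole) and an FPKM value per gene. The authors' deposited comparison adds group means of FPKM, their log2 ratio (PHZ to PBS) and the authors' score, called Probability. The group means match the libraries' FPKM within 0.001 in 100% of genes when a gene not listed is put at 0.01.

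Genes not listed in a library were set to 0 and expected counts were rounded. R 4.3.3 with edgeR 4.0.16 was used for the test: filterByExpr by group (minimum count 10), TMM factors, robust glmQLFit and glmQLFTest, with treatment the only term. It was fitted on the whole table, with Benjamini-Hochberg adjustment over 13547 genes, and called means an adjusted p under 0.05. Values after ± of a log2 fold change are standard errors, the absolute estimate over the square root of F. CPM is scaled by TMM. The fit has 4 residual degrees of freedom and a biological coefficient of variation of 35.2%. Replicates are separate rats; their libraries differed by far more than sampling noise (chi-square per degree of freedom 49.4 to 184.8) and none were merged. Ratios of 2 genes in FPKM were tested with exact permutation tests over libraries. The code was tested on simulated counts. DESeq2 1.42.0, other scalings, filters and covariates, and leaving out libraries were tried as alternatives.

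The members and all lists were chosen with earlier results of these data known. The genes named are every called member, the most abundant and the 3 of smallest p in each class, and a list of well-known members; other members named complete a count or were chosen after their values were seen. Clpp and Vbp1 of the partner lists and Cd79a of the marker lists were not matched to a symbol, and an item is not reported here. Promoter windows come from RefSeq (GRCr8), matched by gene, and are read apart from the rn6 expression data.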

Additional observations from a re-analysis of the deposited data

How the results depend on the processing

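All 19 called members had the same direction in all 14 alternatives, which groups that do not overlap largely fix. Members called numbered 18 with upper-quartile scaling, RLE scaling or no filter, 19 with a stricter filter, 25 with DESeq2 and 14 with sex as labelled as a covariate. Over all genes DESeq2 called 1914 higher and 1562 lower (55.1% higher), the sex covariate 686 and 242, against 1218 and 565 (68.3% higher), and 58.7% were higher with upper-quartile scaling. Members lower were 2 with upper-quartile or RLE scaling and 3 with DESeq2, Dnajb9 being the 1 DNAJB call in those fits and with the sex covariate. DESeq2 called 5 HSP70 and HSP110 and 2 HSP90 genes. With the sex covariate 1 HSP70 and HSP110, 5 TRiC and 1 DNAJC gene were called. The count was 0 in every class and over all genes, 0 higher and 0 lower, without the 3 libraries against their sex label (1480 genes at an unadjusted p under 0.05) and with the replicate block (4641 genes; smallest adjusted p of a member 0.0555, all 19 at an unadjusted p under 0.05). Whether the replicate numbers pair the samples is not given in the labels, and 3 libraries per group cannot decide it. Same-numbered deviations correlated at 0.213, 0.057 and 0.005, the first being the highest of all pairs. PHZ replicate 2 correlated best with PBS replicate 3 (0.154) and PHZ replicate 3 with PBS replicate 2 (0.076). Leaving out 1 library at a time gave 0 to 1213 genes higher and 0 to 720 lower, 0 to 21 members called, 0 to 18 higher and 0 to 3 lower, and by class 0 to 4 HSP70 and HSP110, 0 to 1 HSP90, 0 to 2 mitochondrial chaperonin, 0 to 7 TRiC, 0 to 1 small HSP, 0 to 2 DNAJA, 0 to 3 DNAJB and 0 to 2 DNAJC genes, and no prefoldin. Estimates near 0 changed sign: Hspa1b (log2 fold change 0.01) was -0.043 with upper-quartile scaling, -0.013 with RLE scaling, -0.012 with DESeq2, -0.196 with the block, -0.183 with the sex covariate, -0.07 without the 3 libraries and -0.517 to 0.437 leaving out 1. Hspb11 (0.01) was -0.043 with upper-quartile scaling, -0.004 with RLE scaling, -0.005 with the block and -0.086 to 0.187 leaving out 1. Dnajc2 (-0.05) was -0.159 to 0.02 leaving out 1, and Pfdn5 (-0.11) was 0.075 without the 3 libraries. The log2 ratio difference of Hspd1 to Hspe1 was -0.212 without the 3 libraries and -0.025 to 0.243 leaving out 1, and that of Hspa1a plus Hspa1b to Hspa8 was -0.299 and -0.439 to 1.736. The cause was not tested. With 1 library left out or with the block, fewer degrees of freedom remain.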
